A study of Mus musculus with 18 samples.

Results

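The 30 genes described here serve cholesterol synthesis, uptake and efflux, and each was read by its symbol from the deposited tables, which list 25266 genes. They comprise 19 synthesis enzymes, 4 genes of sterol sensing and 7 genes of sterol transfer, esterification, uptake and efflux. All 30 passed the filter for testing, a mean of at least 0.5 RPKM over all mice, which left 11090 genes. RPKM is the number of reads of a gene per kilobase of its length, scaled to the depth of the library.

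Liver RNA was sequenced from 18 male C57BL/6 mice in 4 groups. In FF mice both copies of Ppp6r3, which encodes SAPS3, a regulatory subunit of protein phosphatase 6, are floxed, and there is no Cre. LKO mice have the same alleles together with Alb-Cre, a recombinase that the albumin promoter drives in hepatocytes. From 8 weeks of age the mice ate for 16 weeks either CD, with 10% of calories as fat (4 FF and 4 LKO mice), or HFD, with 32.5% (5 FF and 5 LKO mice). All mice carry the floxed alleles and only LKO mice carry Cre, so the presence of Cre and the loss of SAPS3 cannot be told apart, and liver cells that do not express albumin keep an intact gene. The study's methods describe a fast of some hours before blood was drawn by cardiac puncture, and whether these livers were collected then, and at which hour, is not given in the sources used here.

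Ppp6r3 followed the genotype labels in every mouse. It was at 8.38, 8.82, 10.98 and 9.17 RPKM in the FF CD mice and at 4.08, 3.88, 4.02 and 3.99 RPKM in the LKO CD mice. On HFD it was at 8.82, 7.55, 8.11, 8.47 and 8.22 RPKM in FF mice and at 4.22, 4.42, 4.87, 4.71 and 4.77 RPKM in LKO mice. The LKO and FF groups did not overlap on either diet (log2 fold change -1.04 ± 0.077 SE, adjusted p = 6.72e-07 by limma on CD and -0.72 ± 0.069 SE, adjusted p = 7.14e-06 by limma on HFD; exact permutation test, two-sided, p = 0.0286 and p = 0.00794, the smallest these group sizes allow). The estimated depth was 23.4 to 37.0 M reads per mouse, and the member gene and mouse with the fewest reads still had an estimated 146. The hepatocyte markers found in the tables summed to 25395 to 34174 RPKM in FF CD livers, against at most 192 RPKM for the 10 Kupffer cell markers in any mouse. No marker of another cell type except Cd3d, a T cell gene, was at 0 in any mouse.

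Cholesterol is built from acetyl-CoA through mevalonate, isoprenoid units and squalene, and the liver is a main site of this synthesis. The enzymes are transcribed under the factor SREBP2, the product of Srebf2, which SCAP carries from the endoplasmic reticulum to the Golgi for activation when sterols are scarce. The INSIG proteins hold SCAP back when sterols are plentiful. Excess cholesterol is esterified, moved to lipoprotein particles by ABCA1, or secreted into bile by the pair ABCG5 and ABCG8, genes that the oxysterol-sensing LXR receptors are known to activate.

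To be called, a gene had to differ by more than 1.5-fold and have an adjusted p below 0.05 (limma on log2(RPKM + 1), two-sided, Benjamini-Hochberg adjustment over the 11090 genes). HFD changed 2 of the 30 genes in FF livers, where Insig2 rose and Insig1 fell, against 6.6% of all genes tested. In LKO livers HFD changed 1 member, Srebf2, which rose, against 1.27% of all genes. Between LKO and FF livers on CD 0 of 30 were called (0.225% of all genes), and 0 of 30 had an unadjusted p under 0.05 (7.67% of all genes). On HFD, 5 of 30 were called between the genotypes, against 2.07% of all genes. Mvd, Msmo1, Insig1 and Stard4 were higher in LKO HFD than in FF HFD livers, and Insig2 was lower. The interaction, which compares the response to HFD between the genotypes, gave 0 of 30 calls (2.44% of all genes), with 3 members at an unadjusted p under 0.05, a smaller share than the 16.5% of all genes. The comparison of diets in FF livers and that of genotypes on HFD share the 5 FF HFD mice, so their values are not independent.

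**Figure D1:**
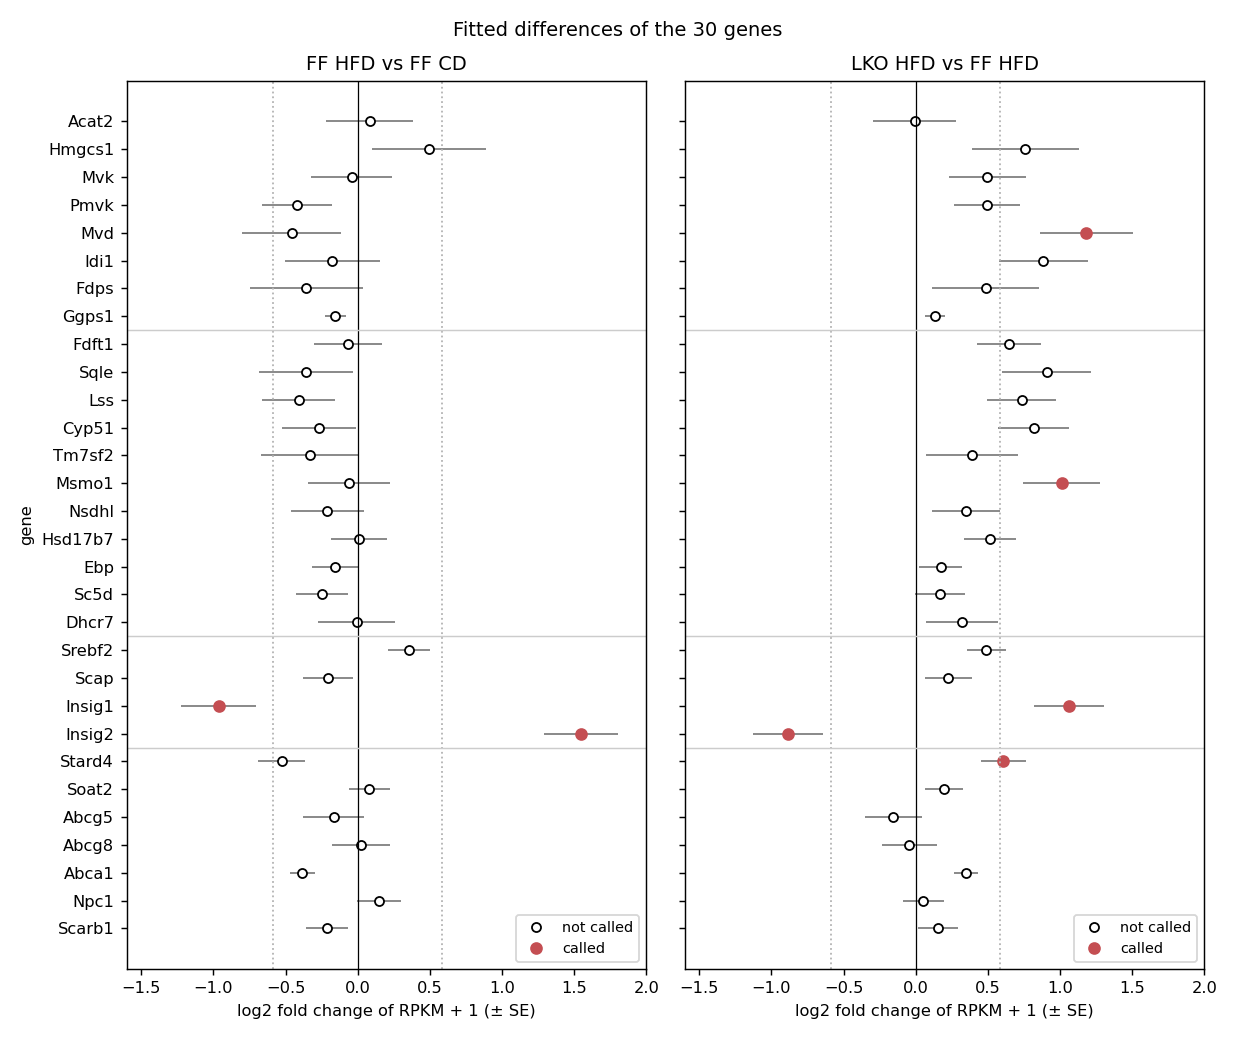
Fitted log2 fold changes of the 30 genes (horizontal axis, log2 of RPKM + 1, with SE bars) for FF HFD against FF CD mice (left) and LKO HFD against FF HFD mice (right), with grey lines between the roles and dotted lines at a fold change of 1.5. Filled points were called: 2 on the left and 5 on the right, where 26 of the 30 points lie above 0.

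Among the sterol sensors, Insig2 had the largest fitted difference of the 30 genes in any comparison. Insig1 and Insig2 encode the 2 INSIG proteins, and Insig1 is itself a known SREBP target, whereas the liver transcript of Insig2 is known to be lowered by insulin and raised in fasting. Insig1 lies at chr5:28071363-28078662, plus strand, and Insig2 at chr1:121304353-121332589, minus strand (GENCODE vM21, GRCm38). Insig2 was at 26.3, 36.3, 14.9 and 18.04 RPKM in FF CD livers and at 55.8, 61.2, 67.7, 85.02 and 73.4 RPKM in FF HFD livers. Every FF HFD mouse was above every FF CD mouse. The rise was 2.92-fold (log2 fold change 1.55 ± 0.26 SE, adjusted p = 0.000479 by limma), and the exact permutation p was 0.0159, the smallest that 5 mice against 4 allow. In LKO livers Insig2 was at 27.5, 42.2, 20.7 and 32.7 RPKM on CD and at 39.8, 26.6, 55.003, 24.9 and 42.9 RPKM on HFD. These groups overlapped, with a log2 fold change of 0.27 ± 0.26 SE, adjusted p = 0.561 by limma. On HFD the 5 LKO mice were all below the 5 FF mice (log2 fold change -0.89 ± 0.24 SE, adjusted p = 0.0458 by limma, a level 1.85-fold lower). On CD, where LKO and FF livers overlapped, the difference was 0.39 ± 0.27 SE, adjusted p = 0.831 by limma. The interaction was -1.27 ± 0.36 SE, adjusted p = 0.0671 by limma and missed the threshold.

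Insig1 went the other way. It was at 221, 224, 134 and 99.9 RPKM in FF CD livers and at 105, 93.3, 62.1, 64.9 and 92.3 RPKM in FF HFD livers. The groups overlapped at 1 point, since FF CD mouse 4 was below FF HFD mouse 1. The fall was 1.95-fold (log2 fold change -0.96 ± 0.26 SE, adjusted p = 0.0128 by limma), and without FF CD mouse 2 its adjusted p was 0.0513. In LKO livers Insig1 was at 255, 169, 229 and 169 RPKM on CD and at 187, 198, 259, 124 and 125 RPKM on HFD. All 5 LKO HFD mice were above all 5 FF HFD mice (2.09-fold; log2 fold change 1.06 ± 0.24 SE, adjusted p = 0.0202 by limma). Between the diets in LKO livers the groups overlapped (log2 fold change -0.24 ± 0.26 SE, adjusted p = 0.628 by limma), as did the genotypes on CD (0.33 ± 0.27 SE, adjusted p = 0.870 by limma). The interaction for Insig1 was 0.73 ± 0.36 SE, adjusted p = 0.327 by limma.

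The RPKM ratio of Insig2 to Insig1 was computed within each mouse as a description, with no test. It was 0.119, 0.162, 0.112 and 0.181 in FF CD mice and 0.108, 0.249, 0.0902 and 0.193 in LKO CD mice. In FF HFD mice it was 0.533, 0.655, 1.09, 1.31 and 0.796, and in LKO HFD mice 0.213, 0.134, 0.212, 0.201 and 0.343. Insig2 was below Insig1 per kilobase in every mouse except FF HFD mice 3 and 4, and the ratio of each FF HFD mouse exceeded that of every mouse of the other groups. The lowest FF HFD ratio was 0.533 and the highest elsewhere 0.343, in LKO HFD mouse 5.

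**Figure D2:**
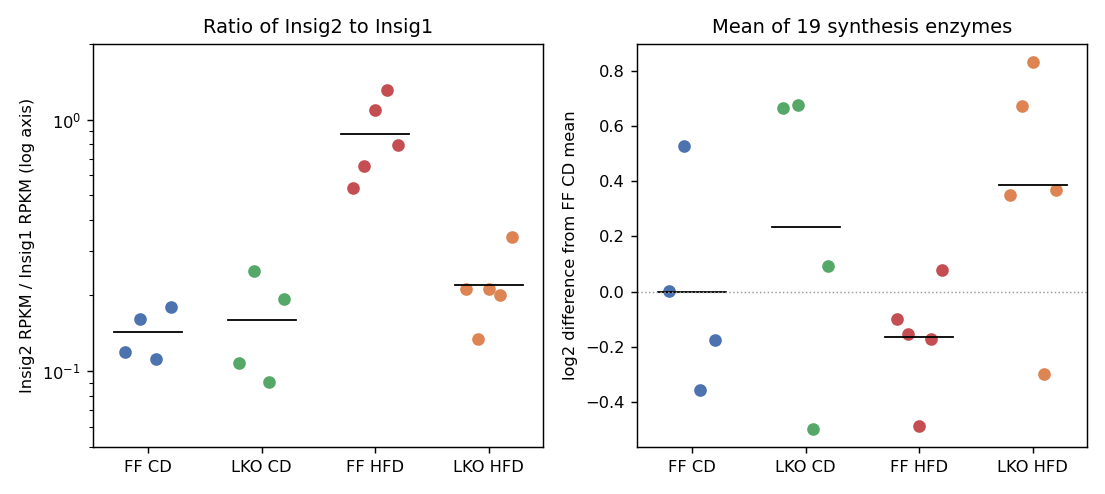
Left, the RPKM ratio of Insig2 to Insig1 in each mouse (log axis), and right, the mean log2 difference of the 19 synthesis enzymes from the FF CD mean, with points for mice and lines for group means. The 5 FF HFD ratios, 0.533 to 1.31, stand above all others, whereas the enzyme means of the groups overlap.

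Promoter stretches are shown for Insig1 and Insig2, which moved oppositely, for Mvd, the enzyme with the largest fitted difference on HFD, and for Hmgcs1, which was called in no comparison and is shown for its sterol regulatory letters. They come from RefSeq on GRCm38.p6 and run 5′ to 3′ toward the transcription start, without bases that GENCODE places within the gene. The stretches are chr5:28071162-28071362, plus strand (Insig1), chr1:121332590-121332839, minus strand (Insig2, the first of 3 listed starts), chr13:119690101-119690350, plus strand (Hmgcs1) and chr8:122443423-122443672, minus strand (Mvd). Capitals mark CCAAT, the box bound by the factor NF-Y, or its reverse complement ATTGG, and in Hmgcs1 also the letters that match TCACNCCAC, a core of sterol regulatory elements.
Insig1: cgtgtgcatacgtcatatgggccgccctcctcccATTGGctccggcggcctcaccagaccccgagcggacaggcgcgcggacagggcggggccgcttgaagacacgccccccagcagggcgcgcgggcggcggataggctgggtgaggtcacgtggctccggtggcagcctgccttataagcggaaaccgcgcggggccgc
Insig2: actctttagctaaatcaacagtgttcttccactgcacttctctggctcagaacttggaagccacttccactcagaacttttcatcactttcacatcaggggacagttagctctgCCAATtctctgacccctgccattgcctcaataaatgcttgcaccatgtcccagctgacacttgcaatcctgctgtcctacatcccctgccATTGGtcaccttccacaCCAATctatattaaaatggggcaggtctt
Hmgcs1: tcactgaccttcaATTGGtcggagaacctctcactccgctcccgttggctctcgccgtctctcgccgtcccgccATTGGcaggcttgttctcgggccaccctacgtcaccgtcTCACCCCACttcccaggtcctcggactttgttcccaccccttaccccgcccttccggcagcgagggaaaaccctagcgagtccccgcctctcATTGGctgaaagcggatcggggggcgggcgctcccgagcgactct
Mvd: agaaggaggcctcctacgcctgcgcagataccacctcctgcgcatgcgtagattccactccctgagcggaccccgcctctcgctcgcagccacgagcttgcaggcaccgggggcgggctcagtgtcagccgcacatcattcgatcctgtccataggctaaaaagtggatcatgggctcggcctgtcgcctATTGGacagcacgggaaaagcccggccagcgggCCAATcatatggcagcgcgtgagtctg

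The search read both strands of the 250 bases before each start, and no CCAAT match overlapped the TCACNCCAC match. Promoters were read for 23 of the 30 genes, with 30 starts in all. Chromosome 18, where Stard4 and Npc1 lie, was left out of the search of members. CCAAT was found at 19 of these 30 starts (63.3%), compared with 33.8% of the 32851 promoters in the whole table. By gene, it was found in 19 of the 23 members (82.6%), compared with 37.5% of all 27025 genes. Among the 16 synthesis enzymes with a listed promoter 15 held it, Acat2 being the exception, and 3 of the 4 sterol sensors did. A member counted if any of its starts held it, and of the starts of Insig2 only the one shown did. Of the transfer and efflux genes whose promoters were read only Abcg8 held it, and Abca1 and Abcg5 did not. TCACNCCAC was found in Hmgcs1 alone among the 23 members, 137 bases before the start, and in 1.05% of all promoters. The match is a description of letters and not of binding. The 3 starts of Insig2 cannot be told apart in the deposited values, which give a single RPKM per gene.

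Srebf2, which encodes SREBP2 (chr15:82147181-82205379, plus strand), was at 5.94, 6.42, 4.08 and 4.93 RPKM in LKO CD livers and at 8.49, 9.43, 13.04, 8.79 and 7.40 RPKM in LKO HFD livers. The groups did not overlap, and the rise was 1.64-fold (log2 fold change 0.71 ± 0.15 SE, adjusted p = 0.0197 by limma). The call was lost without LKO CD mouse 3 (adjusted p = 0.0740, limma), without LKO HFD mouse 3 (adjusted p = 0.0606) and in a fit of these groups alone (adjusted p = 0.0626). In FF livers Srebf2 was at 5.14, 5.28, 4.57 and 4.01 RPKM on CD and at 7.46, 7.59, 5.27, 6.32 and 5.29 RPKM on HFD, where FF HFD mice 1 and 2 were the highest. That difference, 0.35 ± 0.15 SE, adjusted p = 0.0924 by limma, was not called, and neither was the difference between the genotypes on HFD (0.49 ± 0.14 SE, adjusted p = 0.0507 by limma). For Srebf2 the interaction was 0.36 ± 0.21 SE, adjusted p = 0.412 by limma, and was not called. Scap, the escort of SREBP2, was at 12.7 to 26.0 RPKM over the 18 mice and was called in no comparison.

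Of the 19 synthesis enzymes, 18 had a fitted difference above 0 between LKO HFD and FF HFD livers, and 2 of them, Mvd and Msmo1, were called. Acat2, which makes acetoacetyl-CoA, was the exception (-0.0073 ± 0.29 SE, adjusted p = 0.992 by limma). The median log2 fold change of the 19 was 0.50, beside 0.030 over all genes tested, where 57.4% were above 0. In 9 of the 19 the unadjusted p was under 0.05, against 19.3% of all genes. Diet within FF livers gave a median of -0.18 over the 19, with 3 above 0 and 0 called, beside a median of 0.071 and 63.2% above 0 over all genes. Of the 19, 1 had an unadjusted p under 0.05, against 33.7% of all genes. In LKO livers the median over diet was 0.19, with 0 called, and the 12 above 0 are close to the 65.8% of all genes (median 0.067). Here too 1 of 19 had an unadjusted p under 0.05, against 22.3% of all genes. Between the genotypes on CD the median was 0.16, with 17 above 0 and 0 at an unadjusted p under 0.05, beside 0.035 and 61.7% above 0 over all genes. With equal sums, quantile normalization or median centring, 18 of 19 stayed above 0 between the genotypes on HFD, and 12 to 18 of 19 were below 0 for diet in FF livers. The median for diet moved to -0.10 in FF livers with equal sums and to 0.090 in LKO livers when centred on the median. These counts describe the list and are no test of it, since the enzymes varied together between mice.

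Mvd, mevalonate diphosphate decarboxylase (chr8:122433601-122443422, minus strand), had the largest fitted difference of the enzymes. It was at 5.73, 4.32, 2.98, 4.10 and 6.51 RPKM in FF HFD livers and at 9.55, 12.9, 23.2, 5.76 and 12.7 RPKM in LKO HFD livers. Only LKO HFD mouse 4 overlapped the FF HFD mice. The level was 2.27-fold higher in LKO mice (log2 fold change 1.18 ± 0.32 SE, adjusted p = 0.0456 by limma). In a fit of these groups alone the call was lost (adjusted p = 0.0542, limma). On CD it was at 7.99, 13.6, 3.44 and 4.99 RPKM in FF mice and at 13.6, 12.6, 6.59 and 8.47 RPKM in LKO mice, and these ranges overlapped. For Mvd the interaction was 0.67 ± 0.48 SE, adjusted p = 0.518 by limma, and was not called.

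Msmo1 encodes the sterol C4-methyl oxidase (chr8:64718139-64733792, minus strand). It was at 94.3, 77.7, 55.5, 76.9 and 91.6 RPKM in FF HFD livers and at 168, 217, 217, 88.6 and 140.2 RPKM in LKO HFD livers. LKO HFD mouse 4 again fell within the FF range, and the other 4 were above all FF HFD mice. The level was 2.01-fold higher (log2 fold change 1.01 ± 0.27 SE, adjusted p = 0.0413 by limma). On CD Msmo1 was at 75.6, 115, 61.3 and 82.3 RPKM in FF mice and at 154, 140.2, 58.4 and 94.7 RPKM in LKO mice. The difference between the diets in LKO livers was 0.59 ± 0.28 SE, adjusted p = 0.229 by limma and was not called. Nor was the interaction for Msmo1 called (0.65 ± 0.40 SE, adjusted p = 0.445 by limma).

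**Figure D3:**
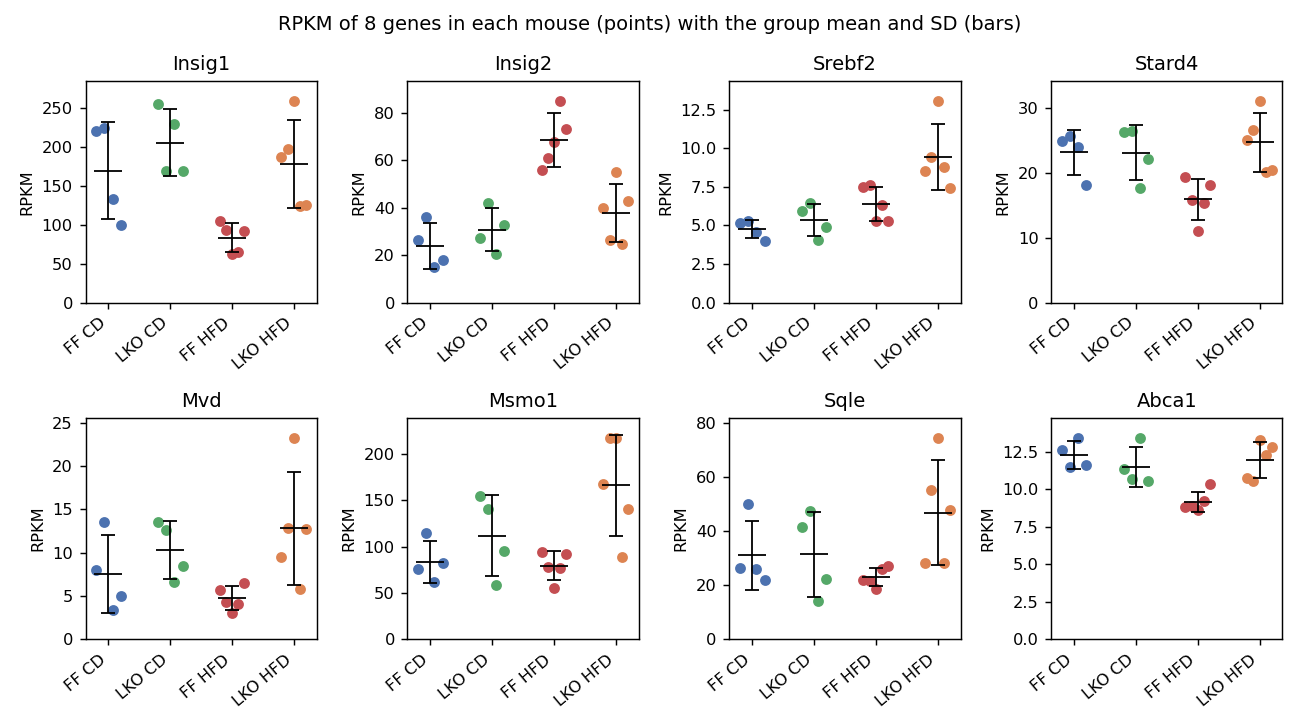
RPKM (vertical axes, from 0) of 8 genes in each mouse, by group, with points for mice and bars for the group mean and SD. The FF HFD mean is the lowest for Insig1, Stard4, Mvd, Msmo1, Sqle and Abca1 and the highest for Insig2. LKO HFD mouse 3 is the highest of its group for Insig1, Insig2, Srebf2, Stard4, Mvd, Sqle and Abca1.

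Idi1, Sqle and Cyp51 separated the genotypes on HFD without being called in the fit of all mice. Idi1, the isomerase that forms dimethylallyl diphosphate, was at 58.4, 65.4, 52.4, 65.1 and 72.6 RPKM in FF HFD livers and at 88.4, 137, 188, 82.4 and 112 RPKM in LKO HFD livers (log2 fold change 0.88 ± 0.31 SE, adjusted p = 0.120 by limma). Sqle, squalene epoxidase, was at 21.8, 21.6, 18.8, 26.1 and 27.2 RPKM in FF HFD livers and at 28.4, 55.1, 74.6, 28.4 and 47.9 RPKM in LKO HFD livers (0.91 ± 0.31 SE, adjusted p = 0.110 by limma). Cyp51, the lanosterol demethylase, was at 31.01, 29.5, 27.9, 30.6 and 36.8 RPKM in FF HFD livers and at 42.6, 66.9, 82.9, 40.1 and 54.7 RPKM in LKO HFD livers (0.82 ± 0.24 SE, adjusted p = 0.0657 by limma). For each of these 3 genes every LKO HFD mouse was above every FF HFD mouse, and the exact permutation p was 0.00794, the smallest that 5 against 5 allow, unadjusted. Counting all 30 members, 6 were higher without overlap (Idi1, Sqle, Cyp51, Insig1, Stard4 and Abca1) and 1 lower (Insig2), against 4.67% of all genes without overlap in either direction. A fit of the HFD groups alone called Idi1 (adjusted p = 0.0422, limma) and Cyp51 (adjusted p = 0.0371, limma). Both were also called without LKO CD mouse 3 (adjusted p = 0.0463 and 0.0289, limma). Cyp51 was called as well with quantile normalization (adjusted p = 0.0335, limma) and without LKO HFD mouse 1 (adjusted p = 0.0436, limma). The remaining alternatives called neither gene, and Sqle was called in no alternative. On CD Idi1, Sqle and Cyp51 overlapped widely. Idi1 was at 73.6, 110.1, 47.7 and 64.4 RPKM in FF CD and 133, 124, 33.9 and 69.4 RPKM in LKO CD livers. Sqle was at 26.5, 50.1, 25.9 and 22.1 RPKM and 41.7, 47.4, 14.2 and 22.5 RPKM in these groups. Cyp51 was at 37.7, 52.8, 28.1 and 35.5 RPKM and 57.3, 63.4, 22.7 and 36.4 RPKM. FF CD mouse 2 and LKO CD mice 1 and 2 were the high mice for each of the 3, and LKO CD mouse 3 was the lowest of its group. The difference of Sqle between the diets in LKO livers was 0.61 ± 0.33 SE, adjusted p = 0.283 by limma, and its interaction was 0.97 ± 0.46 SE, adjusted p = 0.305 by limma.

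Hmgcs1 makes HMG-CoA, the precursor of mevalonate. It was at 44.8, 122, 38.1 and 73.2 RPKM in FF CD livers, 134, 207, 43.9 and 89.1 RPKM in LKO CD livers, 83.1, 92.2, 83.1, 73.6 and 117 RPKM in FF HFD livers and 139, 180.5, 256, 79.96 and 151 RPKM in LKO HFD livers. LKO HFD mouse 3 was the highest of all and LKO HFD mouse 4 lay within the FF HFD range. The difference was 0.76 ± 0.37 SE, adjusted p = 0.269 by limma between genotypes on HFD, 0.70 ± 0.41 SE, adjusted p = 0.771 by limma on CD and 0.49 ± 0.39 SE, adjusted p = 0.404 by limma between diets in FF livers. Fdft1, squalene synthase, was at 33.03, 35.4, 26.8, 27.2 and 35.9 RPKM in FF HFD livers and at 49.4, 64.7, 66.5, 29.8 and 47.6 RPKM in LKO HFD livers (0.64 ± 0.22 SE, adjusted p = 0.113 by limma). In its CD groups it was at 31.1, 45.9, 27.2 and 30.3 RPKM (FF) and 56.3, 55.2, 25.7 and 39.97 RPKM (LKO), and Fdft1 shares 774 exon bases, 18.3% of its own, with Ctsb on the opposite strand, which is expressed at a mean of 93.5 RPKM. Lss, lanosterol synthase, was at 5.24, 6.12, 5.12, 5.55 and 7.003 RPKM in FF HFD livers and at 8.73, 12.1, 16.7, 6.64 and 9.53 RPKM in LKO HFD livers (0.73 ± 0.24 SE, adjusted p = 0.0890 by limma). In its CD groups it was at 7.38, 10.97, 6.75 and 7.43 RPKM (FF) and 14.6, 13.7, 5.06 and 7.79 RPKM (LKO). LKO HFD mouse 4 was the only one of its group within the FF HFD range for both Fdft1 and Lss.

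Pmvk, phosphomevalonate kinase, was at 17.01, 27.2, 16.4 and 21.4 RPKM in FF CD livers, 37.6, 35.8, 16.8 and 24.1 RPKM in LKO CD livers, 14.999, 15.1, 11.2, 15.2 and 17.9 RPKM in FF HFD livers and 22.1, 29.6, 25.7, 11.9 and 20.95 RPKM in LKO HFD livers. It was lowest in FF HFD livers on average, without a call (FF HFD against FF CD -0.42 ± 0.24 SE, adjusted p = 0.235 by limma, LKO HFD against FF HFD 0.49 ± 0.23 SE, adjusted p = 0.245 by limma). Sc5d, the sterol C5-desaturase, had the highest level of the module, a mean of 258 RPKM over the 18 mice. It was at 251, 324, 211 and 236 RPKM in FF CD livers, 356, 395, 259.7 and 320.2 RPKM in LKO CD livers, 206, 216, 213, 187 and 242 RPKM in FF HFD livers and 313, 299.7, 263, 159.5 and 197 RPKM in LKO HFD livers. Its largest difference was between the diets in LKO livers (-0.46 ± 0.18 SE, adjusted p = 0.145 by limma), where LKO HFD mice 4 and 5 were the lowest, and it was not called. Ggps1, which makes the geranylgeranyl diphosphate used to modify proteins and not sterols, had the lowest level, a mean of 1.78 RPKM. It was at 1.89, 1.49, 2.17 and 1.99 RPKM in FF CD livers, 1.87, 1.88, 1.90 and 1.72 RPKM in LKO CD livers, 1.53, 1.41, 1.77, 1.48 and 1.70 RPKM in FF HFD livers and 1.75, 1.85, 2.10, 1.80 and 1.64 RPKM in LKO HFD livers. All 4 groups of Ggps1 overlapped, with -0.16 ± 0.073 SE, adjusted p = 0.138 by limma between the diets in FF livers and 0.13 ± 0.069 SE, adjusted p = 0.306 by limma between genotypes on HFD.

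The 8 enzymes given by range were called in no comparison. Over the 18 mice Acat2 spanned 29.5 to 95.1 RPKM, Mvk (mevalonate kinase) 2.27 to 9.42 RPKM and Fdps (farnesyl diphosphate synthase) 76.7 to 334 RPKM. Of the later steps Tm7sf2 (a sterol C14-reductase) spanned 14.6 to 61.4 RPKM, Nsdhl (a sterol dehydrogenase) 25.3 to 62.2 RPKM and Hsd17b7 (a 3-ketosterol reductase) 11.5 to 31.8 RPKM. Ebp (the sterol isomerase) spanned 53.7 to 103 RPKM and Dhcr7, whose product reduces 7-dehydrocholesterol to cholesterol, 17.9 to 46.7 RPKM. Of these, Hsd17b7 had the largest fitted difference between genotypes on HFD (0.51 ± 0.18 SE, adjusted p = 0.123 by limma). Fdps shares 26.7% of its exon bases with a neighbouring gene on the same strand, Tm7sf2 12.1% with Vps51 on the same strand, Hmgcs1 12.1% and Scap 13.2% with genes on the opposite strand, and Acat2 has a near-identical neighbour, Acat3. The treatment of shared reads is not given in the sources used here, so these values are less certain.

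The 5 calls between LKO HFD and FF HFD livers depended on single mice. Without FF HFD mouse 3 or FF HFD mouse 4, 0 of 30 were called, and 1 was called without FF HFD mouse 2, LKO HFD mouse 2 or LKO HFD mouse 3. The CD groups enter this comparison only through the shared estimate of the spread and the filter. Among them, leaving out FF CD mouse 1 or LKO CD mouse 4 gave 2 calls, LKO CD mouse 1 gave 3 and LKO CD mouse 3 gave 8. Leaving out FF HFD mouse 5 or LKO HFD mouse 5 gave 2. Insig1 kept its call in 15 of 18 such fits, Stard4 in 13, Insig2 and Msmo1 in 8 each and Mvd in 7. The Insig1 call was lost without FF HFD mice 3 or 4 or LKO HFD mouse 3, and that of Stard4 without FF HFD mice 2, 3 or 4 or LKO HFD mice 2 or 3. The calls of Insig2, Msmo1 and Mvd were each lost without FF CD mouse 1, LKO CD mouse 4 or any FF HFD mouse but the first. In addition Insig2 lost its call without LKO CD mouse 1 or LKO HFD mice 2, 4 or 5, Msmo1 without any LKO HFD mouse but the fourth, and Mvd without LKO CD mice 1 or 2 or LKO HFD mice 2, 3 or 5. The log2 fold changes kept their sign in all 18 fits for these 5 genes, with ranges of 0.92 to 1.18 for Insig1, -1.03 to -0.76 for Insig2, 0.89 to 1.22 for Msmo1, 0.95 to 1.41 for Mvd and 0.49 to 0.68 for Stard4.

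The enzymes varied together between mice of the same group. Deviations of log2(RPKM + 1) from the group means gave a median pairwise Pearson's r of 0.84 over the 171 pairs of the 19 enzymes and 18 mice, beside 0.13 over all pairs of tested genes. All 55 pairs among the 11 enzymes from squalene to cholesterol had an r above 0.5. These are correlations across mice of genes measured in the same libraries, given as a description with no p. Against the mean of the other enzymes, r was 0.76 to 0.97 for every enzyme but Ggps1, for which it was -0.22. Outside the enzymes it was 0.77 for Stard4 and Scap, 0.67 for Insig2, 0.63 for Srebf2 and 0.52 for Insig1, whereas Abca1, Npc1, Scarb1, Abcg5, Abcg8 and Soat2 were between -0.31 and 0.12. The within-group SD of the enzymes had a median of 0.44 on the log2 scale, beside 0.16 over all genes tested.

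**Figure D4:**
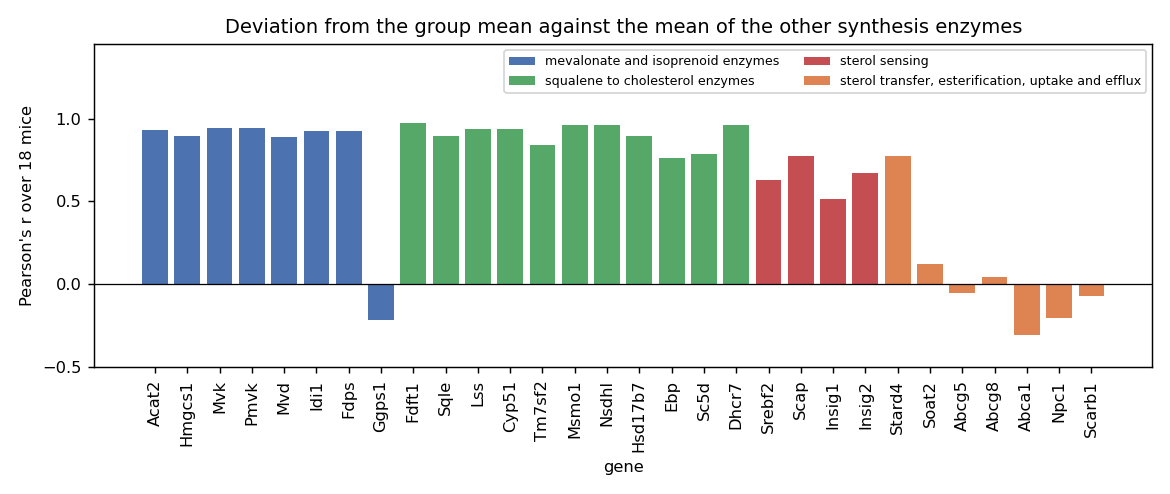
Pearson's r (vertical axis) over the 18 mice between the deviation of each gene from its group mean and the mean deviation of the other synthesis enzymes, coloured by role. The bars of 18 enzymes stand at 0.76 or more, and those of Ggps1 and the efflux genes lie near or below 0.

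The same mice set this spread for most enzymes. As a mean log2 difference of the 19 from the FF CD average, the FF CD mice were at 0.0022, 0.53, -0.36 and -0.17 and the LKO CD mice at 0.66, 0.68, -0.50 and 0.093. The FF HFD mice were at -0.099, -0.15, -0.48, -0.17 and 0.078 and the LKO HFD mice at 0.35, 0.67, 0.83, -0.30 and 0.37. FF CD mouse 2 was the highest of its group for 18 of the 19 enzymes, and LKO CD mouse 3 the lowest of its group for 18. LKO HFD mouse 4 was the lowest for 17 of 19 and LKO HFD mouse 3 the highest for 13. FF HFD mouse 3 was the lowest for 16 and FF HFD mouse 5 the highest for 14. The group means of this average were -0.17 ± 0.20 for FF HFD, 0.38 ± 0.43 for LKO HFD and 0.23 ± 0.56 for LKO CD (SD over 5, 5 and 4 mice).

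**Figure D5:**
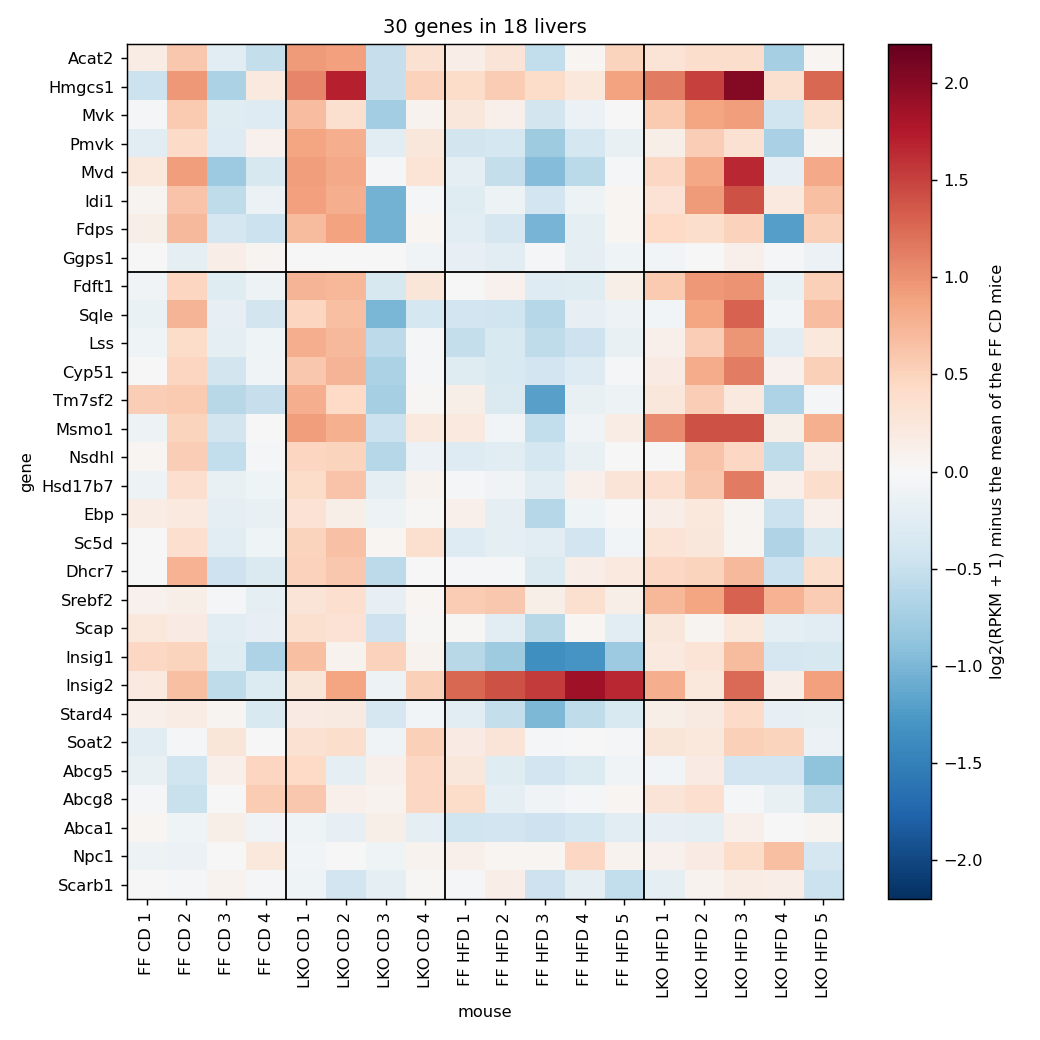
Difference of log2(RPKM + 1) from the mean of the FF CD mice (colour scale) for the 30 genes (rows, by role) in 18 mice (columns, by group). At least 18 of the 19 enzymes are above 0 (red) in FF CD mouse 2, in the first 2 LKO CD mice and in mice 2 and 3 of LKO HFD, and the 5 FF HFD mice are red for Insig2 and blue for Insig1.

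Of the 7 genes of sterol transfer, esterification, uptake and efflux, 1 was called between LKO HFD and FF HFD livers, against 2.07% of all genes. For diet 0 were called in FF livers (6.6% of all genes) and 0 in LKO livers (1.27%). Genotype on CD (0.225%) and the interaction (2.44%) also gave 0. Stard4, a carrier of cholesterol between membranes and a known SREBP target, was at 19.3, 15.8, 11.1, 15.3 and 18.1 RPKM in FF HFD livers and at 25.1, 26.6, 31.1, 20.2 and 20.5 RPKM in LKO HFD livers. The groups did not overlap, and the level was 1.52-fold higher in LKO mice (log2 fold change 0.61 ± 0.15 SE, adjusted p = 0.0343 by limma). That call was lost with equal sums (log2 0.55) and median centring (log2 0.57), which put it under the fold limit, and without the filter (adjusted p = 0.0653, limma) or in a fit of these groups alone (adjusted p = 0.0663, limma). On CD it was at 24.96, 25.7, 24.004 and 18.1 RPKM in FF mice and at 26.3, 26.5, 17.6 and 22.1 RPKM in LKO mice. FF HFD livers were also below FF CD livers (-0.53 ± 0.16 SE, adjusted p = 0.0289 by limma), past the adjusted p but within the fold limit, and under quantile normalization or centring on the median that fall was called. In LKO livers the diets overlapped (0.090 ± 0.16 SE, adjusted p = 0.790 by limma, reversed to -0.0060 when centred on the median). The interaction was 0.62 ± 0.23 SE, adjusted p = 0.177 by limma.

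Abca1, the transporter that loads cholesterol onto apolipoprotein particles, had the smallest within-group SD of the members after Ggps1. It was at 12.6, 11.5, 13.4 and 11.6 RPKM in FF CD livers and at 8.81, 8.85, 8.64, 9.19 and 10.3 RPKM in FF HFD livers. All FF HFD mice were below all FF CD mice, by 1.31-fold (log2 fold change -0.38 ± 0.088 SE, adjusted p = 0.00495 by limma), which is under the fold limit for a call. In LKO livers it was at 11.3, 10.6, 13.4 and 10.6 RPKM on CD and at 10.8, 10.6, 13.3, 12.3 and 12.8 RPKM on HFD. These overlapped (0.052 ± 0.088 SE, adjusted p = 0.775 by limma, with the opposite sign under quantile normalization and under median centring). All LKO HFD mice were above all FF HFD mice (0.35 ± 0.083 SE, adjusted p = 0.0252 by limma), again under the fold limit. The interaction was 0.44 ± 0.12 SE, adjusted p = 0.0672 by limma. For the diet comparison in FF livers the groups of 18.3% of all genes did not overlap, and of the 30 members Insig2 (higher) and Abca1 (lower) did not.

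Abcg5 and Abcg8, which together secrete sterols into bile and gut, lie head to head on chromosome 17 and share 82 exon bases on opposite strands, so that reads there cannot be told apart without strand. Abcg5 was at 29.1, 23.8, 35.5 and 45.6 RPKM in FF CD, 44.6, 28.4, 35.5 and 44.9 RPKM in LKO CD, 38.7, 26.9, 24.01, 26.3 and 30.8 RPKM in FF HFD and 31.03, 37.2, 24.1, 24.2 and 17.2 RPKM in LKO HFD livers. Abcg8 was at 22.5, 16.2, 22.98 and 34.7 RPKM in FF CD, 35.5, 25.2, 24.7 and 32.2 RPKM in LKO CD, 31.003, 19.95, 21.9, 22.5 and 24.01 RPKM in FF HFD and 28.6, 30.5, 22.4, 20.6 and 15.5 RPKM in LKO HFD livers. In both genes all groups overlapped, and LKO HFD mouse 5 was the lowest of its group. Between the diets in LKO livers the fitted differences were -0.53 ± 0.21 SE, adjusted p = 0.150 by limma for Abcg5 and -0.33 ± 0.20 SE, adjusted p = 0.352 by limma for Abcg8. Between genotypes on HFD they were -0.16 ± 0.20 SE, adjusted p = 0.707 by limma and -0.044 ± 0.19 SE, adjusted p = 0.922 by limma. Soat2, the hepatocyte enzyme that esterifies cholesterol, was at 8.40, 9.73, 12.3 and 10.2 RPKM in FF CD, 12.9, 13.4, 9.46 and 14.8 RPKM in LKO CD, 11.5, 12.4, 9.86, 10.1 and 9.81 RPKM in FF HFD and 12.2, 12.01, 14.97, 14.6 and 9.09 RPKM in LKO HFD livers. Its groups overlapped, and its largest difference was between genotypes on CD (0.29 ± 0.15 SE, adjusted p = 0.695 by limma). Npc1, which exports cholesterol from lysosomes, spanned 17.9 to 37.9 RPKM and Scarb1, the HDL receptor, 24.7 to 41.1 RPKM over the 18 mice, with no call.

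Other genes of the pathway were taken from a list of 34, of which 32 were tested. In FF livers HFD changed 3 of 32, against 6.6% of all genes. Srebf1, which encodes the SREBP1 factors of fatty acid synthesis, fell from 58.5 ± 19.1 (SD, n = 4) to 29.3 ± 6.49 (SD, n = 5) RPKM (log2 fold change -0.94 ± 0.31 SE, adjusted p = 0.0369 by limma). Lipa, the lysosomal acid lipase, rose from 63.5 ± 15.6 (SD, n = 4) to 108 ± 13.5 (SD, n = 5) RPKM (0.78 ± 0.16 SE, adjusted p = 0.00244 by limma). Nceh1, a cholesteryl ester hydrolase, rose from 6.53 ± 1.43 (SD, n = 4) to 12.5 ± 1.42 (SD, n = 5) RPKM (0.85 ± 0.17 SE, adjusted p = 0.00191 by limma). In LKO livers HFD changed 2 of 32, against 1.27% of all genes, and both rose. Nceh1 went from 7.61 ± 2.03 (SD, n = 4) to 12.3 ± 3.04 (SD, n = 5) RPKM (0.63 ± 0.17 SE, adjusted p = 0.0449 by limma), and Lrp1, a receptor for lipoprotein remnants, from 21.1 ± 1.70 (SD, n = 4) to 35.3 ± 9.54 (SD, n = 5) RPKM (0.68 ± 0.19 SE, adjusted p = 0.0499 by limma). Between genotypes 0 of 32 were called on CD (0.225% of all genes) and 0 on HFD (2.07%), and the interaction gave 0 calls (2.44%). At an unadjusted p under 0.05 were 2 on CD, 5 on HFD and 4 in the interaction. These shares are below those of all genes, 7.67%, 19.3% and 16.5%. The Srebf1 call held in 11 of 18 fits that left out a mouse, failing when FF CD mouse 1, 2 or 3 was left out, or any FF HFD mouse but the first. In LKO livers the Nceh1 call held in 7 of 18 and was lost without mouse 1 or 3 of FF CD, any LKO CD mouse but the second, mouse 2, 4 or 5 of FF HFD, or mouse 3, 4 or 5 of LKO HFD. The Lrp1 call held in 4 of 18, on leaving out FF HFD mouse 4 or 5 or LKO HFD mouse 1 or 5. Without the filter, with quantile normalization, with median centring and with these groups alone both calls in LKO livers were lost, and that of Nceh1 also with equal sums (adjusted p 0.0515 to 0.106 for Nceh1 and 0.0779 to 0.0984 for Lrp1, limma). The Srebf1 call was lost without the filter (adjusted p = 0.0717, limma). The median log2 fold change of the 32 between LKO HFD and FF HFD livers was 0.042.

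All Kupffer cell and endothelial markers had fitted diet differences above 0 in both genotypes, and all stellate cell markers in FF livers only. In FF livers 5.11% of all genes were called higher on HFD. The 7 sinusoidal endothelial markers summed to 19.4 to 44.2 RPKM in FF CD and 51.8 to 84.2 RPKM in FF HFD mice, and Clec4g, Lyve1, Oit3 and Pecam1 were called higher. The 10 Kupffer cell and macrophage markers summed to 77.5 to 107 RPKM and 90.2 to 192 RPKM, with Adgre1, C1qb and Vsig4 called higher. The 7 stellate cell markers summed to 21.5 to 32.1 RPKM and 32.1 to 54.3 RPKM, with the collagen genes Col1a1 and Col3a1 called higher.

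In LKO livers, where Srebf2, Nceh1 and Lrp1 rose on HFD, all 10 Kupffer cell markers had fitted differences above 0 (median log2 0.55), 8 had an unadjusted p under 0.05 and only Clec4f was called, against 0.965% of all genes called higher. Their sums were 68.8 to 106 RPKM on CD and 99.8 to 176 RPKM on HFD. All 7 endothelial markers were above 0 as well (median log2 0.53, 0 called, 4 at an unadjusted p under 0.05), with sums of 15.04 to 43.4 RPKM on CD and 40.6 to 56.4 RPKM on HFD. The stellate cell sums were 21.6 to 38.3 RPKM and 18.5 to 42.1 RPKM, with 0 called and 0 at an unadjusted p under 0.05.

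Between LKO HFD and FF HFD livers all markers of Kupffer cells, endothelium and stellate cells had fitted differences below 0. Among all 11090 genes tested 4719 were below 0. An unadjusted p under 0.05 (limma) was reached by 0 of 10 Kupffer cell, 3 of 7 endothelial and 2 of 7 stellate cell markers. The share of all genes was 19.3%. Of all these markers, Col1a1 and Col3a1 were called lower, against 1.17% of all genes. The hepatocyte sums overlapped, at 31196 to 40086 RPKM in FF HFD and 30811 to 40945 RPKM in LKO HFD mice, but single markers moved. Cps1, a urea cycle enzyme, fell by 1.24 on the log2 scale between FF HFD and FF CD livers (adjusted p = 0.000157 by limma, with 1.49% of all genes called lower). Fga, a fibrinogen chain, was higher in LKO HFD than in FF HFD livers (log2 0.85, adjusted p = 0.00361 by limma, with 0.902% of all genes called higher), rose with HFD in LKO livers (log2 0.63, adjusted p = 0.0398 by limma) and was called in the interaction (log2 1.07, adjusted p = 0.0134 by limma). The sums of cholangiocyte markers (17.5 to 61.5 and 15.3 to 65.9 RPKM) and of lymphocyte markers (1.08 to 2.67 and 1.49 to 2.71 RPKM) overlapped between FF HFD and LKO HFD mice. The part of cell composition in the differences of the cholesterol genes was not tested, and in bulk liver fewer cells of a type and less RNA per cell cannot be told apart.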

How the data were processed

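Liver RNA was sequenced from each mouse, and the labels name both a small RNA library protocol and a standard RNA-seq protocol. The submitters' processing notes name HISAT2 2.0.4, Partek and mm10, and the authors deposited 1 table of RPKM per mouse, used here with no further scaling. The annotation, strandedness and treatment of reads that match several genes are not given in the sources used here. Groups came from the sample titles, with no pooled samples, and no 2 tables were identical. Depth, 23.4 to 37.0 M reads per mouse, was estimated from 92 genes with a single exon, as the step that makes their values under 0.2 RPKM whole reads. Reads per gene were estimated from that depth and the exon length in GENCODE vM21, and cover counting error only.

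The 11090 genes that averaged 0.5 RPKM or more were fitted as log2(RPKM + 1) with limma 3.58.1 in R 4.3.3, with 1 coefficient per group over all 18 mice and a trend of the variance on the mean, and 5 comparisons were tested two-sided. Fold changes are on the log2(RPKM + 1) scale, which understates those of low genes. Exact permutation tests over mice (scipy 1.17.1) can give no p below 0.0286 for 4 mice against 4, 0.0159 for 5 against 4 and 0.00794 for 5 against 5. The fit was tested on simulated data in which genes varied independently, unlike these enzymes, so that test does not cover their shared variation. Members and lists were chosen with earlier results of these data known. A member was described in every mouse if called in any comparison or among the 8 smallest p of a comparison (19 genes), and otherwise by range (11 genes), and other pathway genes were named if called. Promoter sequences are from RefSeq (GRCm38.p6), coordinates from GENCODE vM21. Results were recomputed with log2(RPKM + 0.1), without the filter or with one at 1 RPKM, after equalizing sums, quantile normalization or median centring, on the compared groups alone, without the variance trend, with a replicate block, by adjusted p only, and with each mouse left out.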

Additional observations from a re-analysis of the deposited data

Results flagged for a closer look

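Of 120 sets of values (30 genes in 4 groups), 5 held a mouse whose gap to its nearest neighbour exceeded Dixon's 95% limit for the range of its group, where chance alone marks about 1 in 20, or 6. FF CD mouse 2 was high for Sqle (50.1 RPKM, the others 22.1 to 26.5 RPKM), for Lss (10.97 RPKM, the others 6.75 to 7.43 RPKM) and for Hsd17b7 (18.05 RPKM, the others 12.2 to 12.8 RPKM). LKO HFD mouse 4 was low for Fdps (76.7 RPKM, the others 235 to 260 RPKM). FF HFD mouse 4 was high for Npc1 (32.4 RPKM, the others 24.3 to 25.5 RPKM). Without FF CD mouse 2 the interaction of Insig2 passed the thresholds (log2 -1.49, adjusted p = 0.0255, limma). Without LKO HFD mouse 4 Fdft1 was called between LKO HFD and FF HFD livers (log2 0.82, adjusted p = 0.0391, limma).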

How the results depend on the processing

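Between LKO HFD and FF HFD mice the 5 member calls became 1 with no filter on low values, where 20071 genes were tested. They became 0 to 8 with a mouse left out, 4 with the replicate number as a block and 6 on the adjusted p alone. Equal sums and median centring each lost Stard4, and quantile normalization added Cyp51. A fit of these groups alone lost Mvd and Stard4 and added Idi1 and Cyp51. The 2 calls between diets in FF mice became 4 on the adjusted p alone, and 1 to 3 with a mouse left out (1 without FF CD mouse 2). The call between diets in LKO mice became 0 when only these groups were fitted, and 0 to 1 with a mouse left out (0 when either the third LKO CD or the third LKO HFD mouse was missing). The interaction had 1 call with sums made equal (Insig2), 2 with quantile normalization (Insig2 and Stard4), and 0 to 1 with a mouse left out (Insig2, on leaving out FF CD mouse 2 or the third LKO mouse of either diet). Between genotypes on CD all alternatives gave 0. Of the 5 calls on HFD, Insig1 held in all 9 alternatives that gave it a value and left out no mouse, Msmo1 in 8, Insig2 and Mvd in 7 and Stard4 in 5. The causes were not tested.

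Whether mice with the same replicate number belong together is not given in the sources used here. Of 25 same-numbered pairs 10 had deviations correlated above 0.1 (range -0.17 to 0.33). Pairs with unlike numbers were not compared, so these values cannot decide it. With the replicate block the member counts were 2, 1, 0, 4 and 0 in the order diet in FF, diet in LKO, genotype on CD, genotype on HFD and interaction, Insig2 on HFD having an adjusted p of 0.072 (limma), and Ppp6r3 stood at -1.04 on CD and -0.72 on HFD.

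Reversals were limited to values near 0: between diets in LKO mice Stard4 at -0.0060 (centred on the median) and Abca1 at -0.0057 (quantile normalization) and -0.044 (centred on the median). With a mouse left out they were Stard4 (-0.029 to 0.16), and between genotypes on HFD Acat2 (-0.16 to 0.19) and Abcg8 (-0.14 to 0.091). Of 55 gene differences, the alternatives other than leaving out a mouse gave 459 values on the same side of the threshold, 20 that lost the call, 8 that gained it and 3 reversed. With a mouse left out, 898 stayed on the same side, 74 lost the call, 10 gained it and 8 reversed. Differences that were not called and stayed so count as the same side. The lowest estimated read number of a member in any mouse was 146, and groups of 4 or 5 mice limit the precision.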
